A study of Homo sapiens with 6 samples.

Results

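The 10 genes described here belong to the BCL2 family, whose proteins set the threshold for mitochondrial apoptosis. They were chosen by name, as rows of the deposited counts whose NCBI Gene number belongs to *BCL2*, *BCL2L1*, *MCL1*, *BAX*, *BAK1*, *BCL2L11*, *BBC3*, *PMAIP1*, *BID* or *BIK*, and all 10 were found among the 29806 gene numbers listed. RNA-seq was performed on LNCaP, a human prostate cancer cell line that responds to androgen, in 3 dishes of LNCaP parental cells (labelled wild type) and 3 dishes of PACT KO cells (labelled PACT knockout). PACT, a double-stranded RNA binding protein, is encoded by *PRKRA*. Both groups were grown in RPMI-1640 with 10% serum and taken 48 h after plating, at about 80% confluency, with no drug or hormone added. The PACT KO cells were made by transfecting a plasmid carrying Cas9 and a guide, sorting the cells that fluoresced and growing colonies from single cells. The study's supplement states that a single clone served for the experiments after its isolation, and the 3 PACT KO dishes are taken to be that clone. No cloned control is described for the parental cells, so a difference between the groups and a difference acquired in cloning cannot be told apart. Nothing in the labels says that the dishes of a group came from separate cultures, so p-values measure the spread between these dishes, which may be technical.

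BCL2 family proteins share short BCL2 homology (BH) domains and act on the outer mitochondrial membrane. The survival proteins BCL2, BCL-XL (from *BCL2L1*) and MCL1 hold in check the effectors BAX and BAK (from *BAK1*), which form pores that release cytochrome c. BH3-only proteins, namely BIM (from *BCL2L11*), PUMA (from *BBC3*), NOXA (from *PMAIP1*), BID and BIK, bind the survival proteins, and some of them also activate the effectors. Much of this control acts on the proteins, through binding, cleavage, phosphorylation and degradation, which counts of mRNA do not measure.

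The libraries held 19930060 to 24940838 reads counted on genes, and 3 counts, the limit that a count of 0 allows, correspond to 0.120 to 0.151 CPM, a count scaled to library size. The targeted gene, *PRKRA*, had 882, 809 and 866 reads per LNCaP parental library and 291, 331 and 243 per PACT KO library, a log2 fold change of -1.57 (SE 0.07, FDR = 8.83e-21, edgeR). All 8 markers of LNCaP cells that were looked up were detected in every library, among them *FOLH1*. Of these, 3 were lower and 2 higher in PACT KO cells at an FDR under 0.01 (62.5% beside 34.2% of all genes tested, edgeR). Their log2 fold changes ranged from -0.84 for *KLK2* to 0.54 for *SLC45A3*. Of the markers of other cell types, all 3 of basal epithelium and all 4 of leukocytes had at most 4 reads in any library. *COL1A1* and *VWF*, from the fibroblast and endothelial lists, were detected and differed between the groups, with 623 to 732 against 878 to 1065 reads for *COL1A1* and 537 to 613 against 335 to 437 for *VWF*, while the defining *COL1A2*, *PECAM1* and *CDH5* had 0 reads throughout. The part of *COL1A1* and *VWF* in the results was not tested. In RNA from whole dishes, fewer cells that express a gene and less RNA per cell cannot be told apart.

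The BCL2 family genes differed little between PACT KO and LNCaP parental cells. By the quasi-likelihood test of edgeR, *PMAIP1* and *BAK1* fell and *BID* rose at a false discovery rate (FDR) under 0.01, while the other 7 did not pass. That is 3 of 10 genes, 2 lower and 1 higher, beside 34.2% of the 14462 genes tested (18.8% lower and 15.3% higher). With the 8 further family genes described below, 7 of 18 passed (38.9%). Neither share is read as a result about the family. None of the 10 reached the 1.5-fold change that the study required of a differentially expressed gene (DEG), a status that 5.72% of all genes tested had (2.65% lower and 3.07% higher). At an FDR under 0.05, *BAX* passed as well, so that 4 of 10 genes passed beside 45.2% of all genes tested. The median log2 fold change (log2FC, PACT KO over LNCaP parental) of the 10 genes was 0.00, as was that of all genes tested, and the single values ranged from -0.44 to 0.21. All 10 passed the filter on low counts. In 6 of the 10 genes every PACT KO library lay beyond all LNCaP parental libraries (4 lower and 2 higher in PACT KO cells), beside 52.2% of all genes tested.

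**Figure D1:**
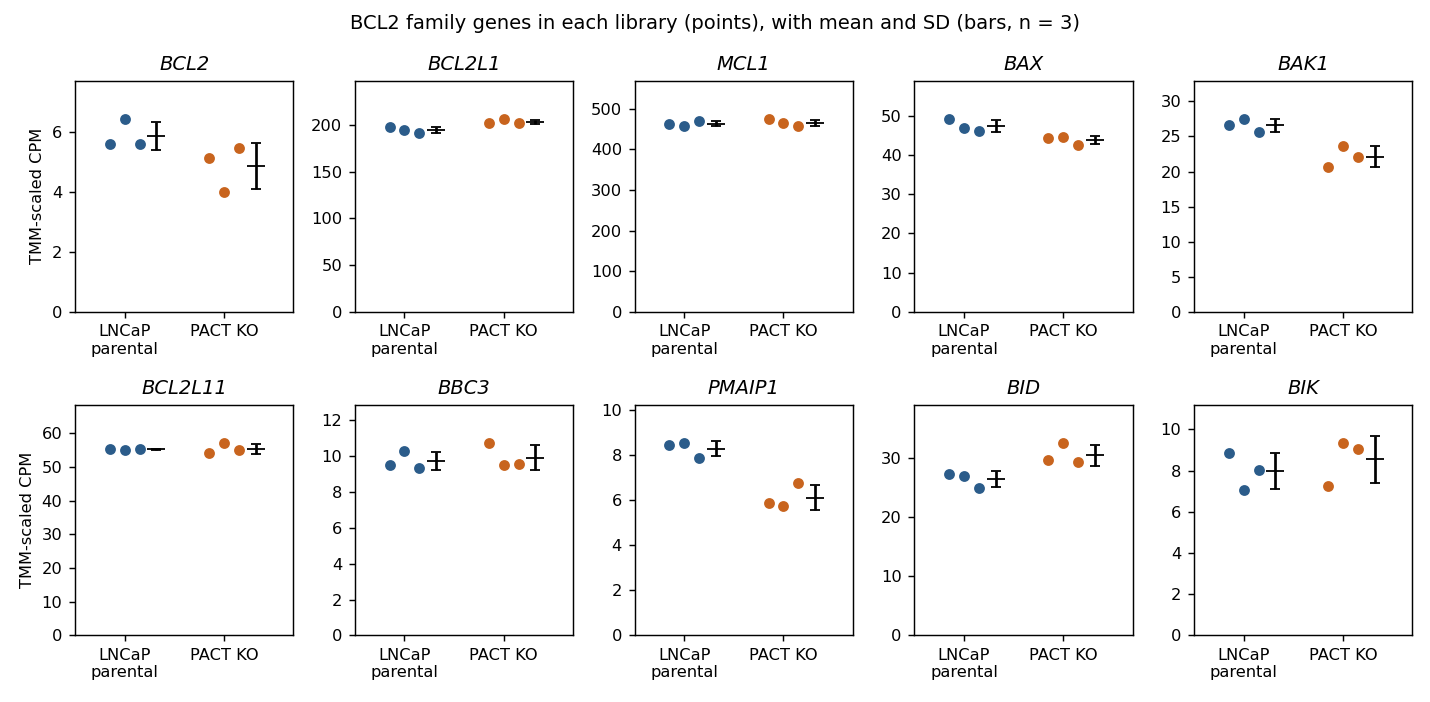
TMM-scaled CPM (reads relative to library size, y axis from 0) of the 10 BCL2 family genes in the 3 LNCaP parental and the 3 PACT KO libraries, 1 point per library, with mean and SD as bars. *PMAIP1*, *BAK1*, *BAX* and *BCL2* show lower points in PACT KO cells with no overlap, *BID* and *BCL2L1* show higher ones, and only the falls of *PMAIP1* and *BAK1* and the rise of *BID* passed an FDR of 0.01.

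The upstream sequences of the 3 genes that passed the test are shown because transcription of a gene starts beside them, and because the list of transcription factors described further on includes E2F1, MYC, JUN, FOXO and ATF4 proteins. Each is the 150 bases before the outermost start of the gene in RefSeq (GRCh38.p14), written in the direction of transcription, with matches to 6 motifs in capitals. The windows are chr18:59899846-59899995 on the plus strand for *PMAIP1*, chr6:33580277-33580426 on the minus strand for *BAK1* and chr22:17774666-17774815 on the minus strand for *BID*.
*PMAIP1*: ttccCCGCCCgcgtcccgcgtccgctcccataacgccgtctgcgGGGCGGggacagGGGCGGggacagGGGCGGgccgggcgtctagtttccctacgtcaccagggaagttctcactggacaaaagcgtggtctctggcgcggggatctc
*BAK1*: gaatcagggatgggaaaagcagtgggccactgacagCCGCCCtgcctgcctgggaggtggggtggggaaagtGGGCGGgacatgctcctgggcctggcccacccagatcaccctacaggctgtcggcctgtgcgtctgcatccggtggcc
*BID*: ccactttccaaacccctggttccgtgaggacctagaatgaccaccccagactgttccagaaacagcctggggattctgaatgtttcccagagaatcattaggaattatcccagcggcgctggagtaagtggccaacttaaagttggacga

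The capitals are all the GC box of SP1 (GGGCGG, on either strand), with 4 matches for *PMAIP1*, 2 for *BAK1* and 0 for this start of *BID*. A GC box stood in 36.8% of the 35116 upstream windows of the same length in the table. The E2F motif (TTTNNCGC, 3.69% of all windows), the E-box of MYC (CACGTG, 4.57%), the AP-1 motif (TGANTCA, 4.17%), the cAMP response element (TGACGTCA, 1.40%) and the FOXO motif (TGTTTAC, 1.73%) had no match in the 3 windows printed. Of the 10 genes, 8 matched the table by symbol, and *BID* has 5 starts in it. Over all starts, 5 of the 8 genes held a GC box (*BAK1*, *BAX*, *BCL2L11*, *BID* and *PMAIP1*), beside 40.7% of all genes in the table, and 2 an E-box (*BAX* and *BID*), beside 5.64%. An E2F motif stood before *BCL2L1* (4.58% of all genes) and an AP-1 motif before *BBC3* (5.16%). A GC box also matches part of longer GC-rich runs, and a match says only that these letters are present.

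Among the survival genes, no change passed an FDR of 0.01. *BCL2* (NCBI Gene number 596, chromosome 18, bases 63123346 to 63320090, hg38), which encodes the founding member of the family, had 127, 139 and 139 reads per LNCaP parental library and 127, 97 and 111 per PACT KO library. In CPM, scaled by the TMM method, these were 5.59, 6.43 and 5.61 against 5.14, 3.99 and 5.49. Every PACT KO replicate was lower than every LNCaP parental replicate, though by little for 2 of them. Its log2FC was -0.27 (SE 0.12, 95% interval -0.52 to -0.03, FDR = 0.0630). Without PACT KO replicate 2, the lowest, it was -0.15 (FDR = 0.371).

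*BCL2L1* (number 598, chromosome 20, bases 31664452 to 31723963) encodes BCL-XL and had 4493, 4210 and 4725 reads per LNCaP parental library and 4980, 5002 and 4080 per PACT KO library. Scaled, these were 198, 195 and 191 CPM against 202, 206 and 202 CPM, so the groups did not overlap but lay close together. Its log2FC was 0.06 (SE 0.03, 95% interval 0.01 to 0.12, FDR = 0.0656), and with libraries scaled by their totals alone it was 0.09 (FDR = 0.00524), which passed. *MCL1* (number 4170, chromosome 1, bases 150574558 to 150579610), whose short-lived protein is the main partner of NOXA, had the most reads of the 10 genes, 10519, 9887 and 11634 in LNCaP parental and 11705, 11292 and 9247 in PACT KO cells. These were 463, 457 and 470 CPM against 474, 464 and 457 CPM, and the groups overlapped. The log2FC of *MCL1* was 0.01 (SE 0.03, FDR = 0.886), with a 95% interval of -0.05 to 0.06.

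Of the effectors, *BAK1* fell and *BAX* did not pass the test. *BAK1* (number 578, chromosome 6, bases 33572552 to 33580276) encodes the pore-former that resides on mitochondria, and had 605, 593 and 636 reads per LNCaP parental library and 510, 575 and 446 per PACT KO library. In CPM these were 26.6, 27.4 and 25.7 against 20.6, 23.6 and 22.1, so all PACT KO replicates lay below all LNCaP parental replicates. The log2FC was -0.26 (SE 0.06, FDR = 9.32e-04). Without LNCaP parental replicate 2 it was -0.24 with an FDR of 0.0118, short of the threshold.

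*BAX* (number 581, chromosome 19, bases 48954875 to 48961798) encodes the effector that moves from the cytosol to mitochondria. It had 1115, 1015 and 1146 reads per LNCaP parental library and 1097, 1086 and 862 per PACT KO library, or 49.1, 46.9 and 46.3 CPM against 44.4, 44.7 and 42.6 CPM. The groups did not overlap. A log2FC of -0.11 (SE 0.04, 95% interval -0.19 to -0.03, FDR = 0.0304) passes an FDR of 0.05 but not of 0.01.

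Of the 5 BH3-only genes, *PMAIP1* fell, *BID* rose and 3 did not pass. *PMAIP1* (number 5366, chromosome 18, bases 59899996 to 59904305) encodes NOXA, a small protein that binds MCL1 and is induced by p53 and by stress. Its reads numbered 191, 184 and 195 per LNCaP parental library and 145, 139 and 136 per PACT KO library. Scaled, these were 8.41, 8.51 and 7.87 CPM against 5.87, 5.72 and 6.73 CPM, and the highest PACT KO replicate lay below the lowest LNCaP parental replicate. The log2FC of -0.44 (SE 0.10, FDR = 5.50e-04) was the largest in size of the 10 genes. It passed under each of the 15 alternatives, at -0.40 to -0.51, with the highest FDR, 0.00977, under DESeq2.

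*BID* (number 637, chromosome 22, bases 17734138 to 17774665) links death receptors to mitochondria, as caspase-8 cleaves its protein to the active form. The gene had 622, 583 and 616 reads per LNCaP parental library and 734, 791 and 592 per PACT KO library, or 27.4, 27.0 and 24.9 CPM against 29.7, 32.5 and 29.3 CPM. All PACT KO replicates lay above all LNCaP parental replicates. For *BID* the log2FC was 0.21 (SE 0.06, FDR = 0.00361). This call depended on the test and on single libraries, as the FDR was 0.0220 under DESeq2, 0.0132 without LNCaP parental replicate 2, 0.0508 without LNCaP parental replicate 3 and, leaving out PACT KO replicate 2, 0.05003.

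*BCL2L11* (number 10018, chromosome 2, bases 111120914 to 111168445) encodes BIM, which binds all of the main survival proteins. It had 1256, 1190 and 1373 reads against 1339, 1388 and 1112, or 55.3, 55.0 and 55.4 CPM against 54.2, 57.1 and 55.0 CPM, and the PACT KO replicates enclosed the LNCaP parental ones. For *BCL2L11* the log2FC was 0.00 (SE 0.04, FDR = 0.939), with a 95% interval of -0.07 to 0.08. *BBC3* (number 27113, chromosome 19, bases 47220824 to 47232860), the p53 target that encodes PUMA, had 216, 223 and 232 reads against 265, 231 and 193, or 9.51, 10.3 and 9.37 CPM against 10.7, 9.50 and 9.55 CPM. Here too the groups overlapped, at a log2FC of 0.03 (SE 0.09, 95% interval -0.16 to 0.22, FDR = 0.813).

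*BIK* (number 638, chromosome 22, bases 43110750 to 43129712), whose protein sits in the endoplasmic reticulum, had 201, 153 and 199 reads against 179, 227 and 183, or 8.85, 7.08 and 8.03 CPM against 7.24, 9.33 and 9.05 CPM. The replicates of the groups were intermixed. For *BIK* the log2FC was 0.09 (SE 0.11, FDR = 0.509), and the 95% interval of -0.12 to 0.31 leaves room for changes in either direction at this depth.

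**Figure D2:**
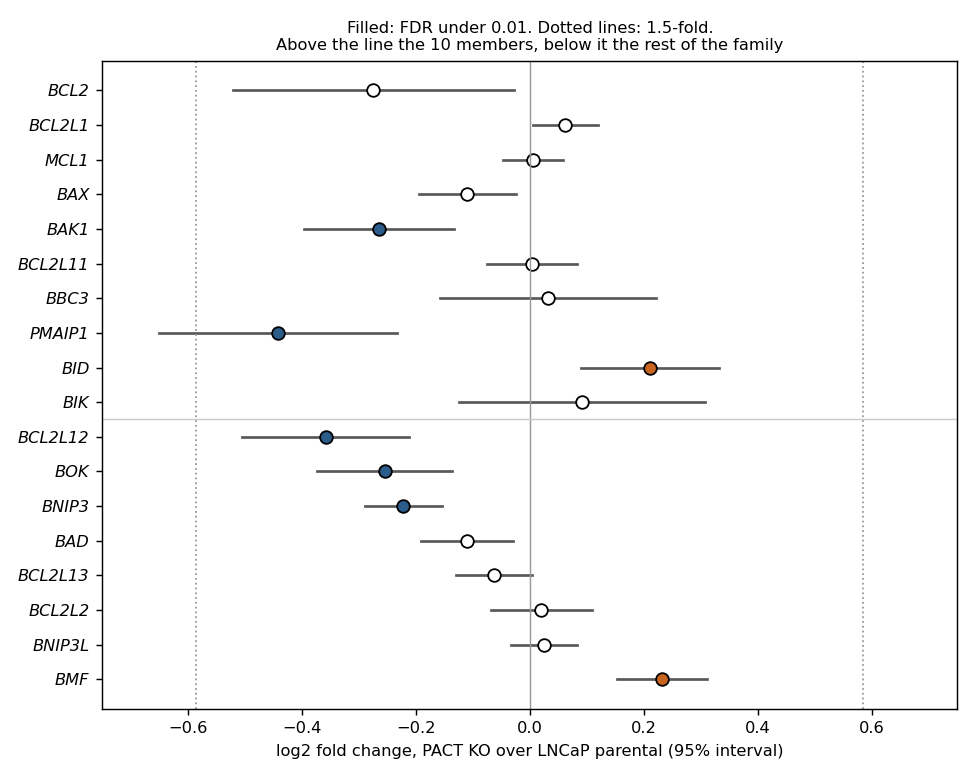
Log2 fold change of PACT KO over LNCaP parental cells (x axis) with 95% interval for the 10 BCL2 family genes above the line and the 8 further family genes with enough reads below it. Filled points passed an FDR of 0.01, and every point lies inside the dotted lines at 1.5-fold, from -0.44 for *PMAIP1* to 0.23 for *BMF*.

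To compare levels between genes, CPM were divided by the length of each gene's exons, merged over all GENCODE transcripts. In LNCaP parental cells *MCL1* was the highest at 106 ± 1.43 CPM per kb (SD, n = 3), followed by *BCL2L1* at 58.7 ± 1.07 and *BAX* at 18.3 ± 0.572. *BCL2* was the lowest at 0.4996 ± 0.0405 CPM per kb. Of the survival genes, *MCL1* and *BCL2L1* therefore headed the order and *BCL2* closed it. Between them stood *BAK1*, *BIK*, *BCL2L11*, *BID*, *PMAIP1* and *BBC3*, in falling order from 12.0 to 3.06 CPM per kb. Neighbours in this order had separate replicates except *BIK* and *BCL2L11*.

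In PACT KO cells the first 7 genes kept the same order, at 106 ± 1.88 CPM per kb for *MCL1* and 61.3 ± 0.696 for *BCL2L1*. *BBC3*, at 3.12 ± 0.219, stood before *PMAIP1*, at 2.73 ± 0.244, but the replicates of this pair overlapped, as did those of *BAK1* and *BIK* and of *BIK* and *BCL2L11*. *BCL2* was again last, at 0.414 ± 0.0668 CPM per kb. The exon lengths count all annotated transcripts, not those that LNCaP cells use, so levels per kb are approximate, above all for *BCL2*, whose merged exons span 11765 bases.

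**Figure D3:**
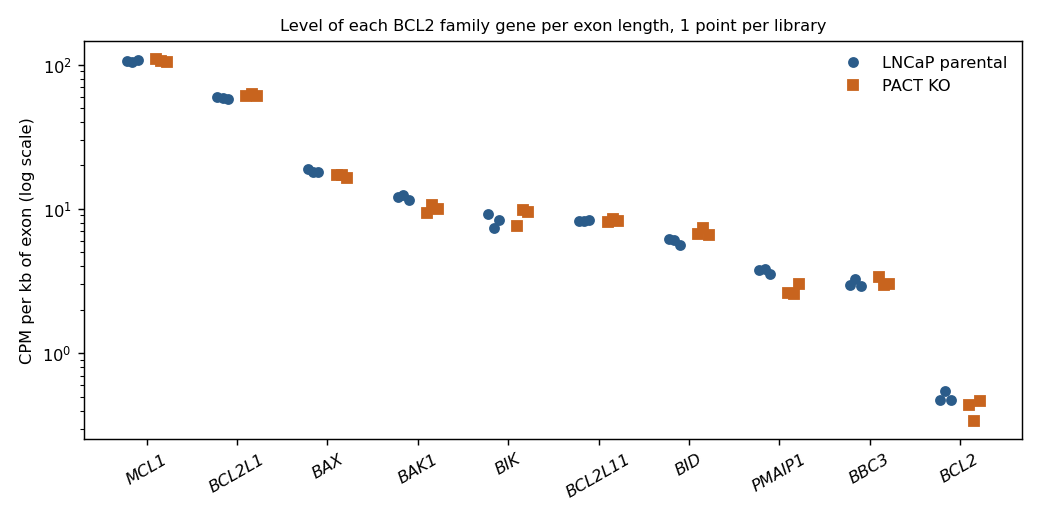
CPM per kb of merged exon (log axis) for the 10 genes in order of their level in LNCaP parental cells, 1 point per library, circles for LNCaP parental and squares for PACT KO cells. *MCL1* and *BCL2L1* stand highest and *BCL2* lowest in both groups.

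The ratio of *BAX* to *BCL2* is often used to describe the balance of death and survival genes. On the log2 scale of CPM it was 3.13, 2.87 and 3.04 in LNCaP parental and 3.11, 3.48 and 2.96 in PACT KO cells. The groups overlapped, and the difference between their means, 0.17, was smaller than the SD of the PACT KO replicates, 0.27. Without PACT KO replicate 2 the difference was 0.02. For *PMAIP1* and *MCL1*, whose proteins bind each other, the log2 ratio was -5.78, -5.75 and -5.90 in LNCaP parental and -6.33, -6.34 and -6.09 in PACT KO cells. Here the groups did not overlap, and their means differed by -0.45. As *MCL1* had a log2FC of 0.01, this ratio largely repeats the fall of *PMAIP1* (log2FC -0.44) and is not a separate result.

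A further 13 genes of the family were looked up, of which 8 had enough reads to be tested. Of these, *BCL2L12*, *BOK* and *BNIP3* fell and *BMF* rose at an FDR under 0.01, and none was a DEG (5.72% of all genes tested). That is 3 lower and 1 higher of 8 (50%), beside 34.2% of all genes tested (18.8% lower and 15.3% higher). *BMF* encodes a BH3-only protein that is released from the cytoskeleton, and its level rose from 62.3 ± 2.87 CPM to 73.2 ± 2.21 CPM (SD, n = 3), a log2FC of 0.23 (SE 0.04, FDR = 4.99e-06). *BOK*, an effector related to *BAX* and *BAK1*, fell from 32.8 ± 2.197 to 27.4 ± 1.67 CPM, a log2FC of -0.25 (SE 0.06, FDR = 4.77e-04), though without LNCaP parental replicate 1 the FDR was 0.0206.

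*BNIP3*, which encodes a mitochondrial protein of mitophagy, fell from 113 ± 1.72 to 96.5 ± 3.68 CPM (log2FC -0.22, SE 0.03, FDR = 7.36e-07). *BCL2L12* fell from 23.0 ± 1.51 to 17.9 ± 1.07 CPM (log2FC -0.36, SE 0.07, FDR = 8.99e-05). *BAD*, a BH3-only gene regulated through phosphorylation of its protein, had a log2FC of -0.11 (FDR = 0.0214), and *BCL2L13* one of -0.06 (FDR = 0.116). The survival gene *BCL2L2* had a log2FC of 0.02 (95% interval -0.07 to 0.11) and *BNIP3L* one of 0.02 (95% interval -0.03 to 0.08). *BCL2A1*, *BCL2L10*, *HRK*, *BCL2L14* and *BCL2L15* had at most 8 reads in any library and were not tested. In RefSeq, *BCL2L12* overlaps *IRF3*, *BNIP3* overlaps *PPP2R2D*, *BAD* overlaps *GPR137*, *BOK* overlaps *BOK-AS1*, *BCL2L1* overlaps *BCL2L1-AS1*, *BBC3* and *BID* hold microRNA genes and *BCL2L2* overlaps a read-through gene. The use of strand in counting is not given in the sources used here, so reads of such pairs could have been exchanged.

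The wider apoptosis pathway was described through 5 further lists. Together with the 13 family genes just described they hold 66 genes, of which 56 were tested, and 18 fell and 10 rose, that is 50% beside 34.2% of all genes tested. The median log2FC of the 56 genes was -0.05. Only 1 of them was a DEG, *BIRC5*, beside 5.72% of all genes tested. The lists were chosen with results of these data known, so the share says nothing about apoptosis genes in general.

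Downstream of the mitochondria, 3 of the 14 tested genes of caspases and the apoptosome fell and none rose (21.4% beside 34.2% of all genes tested), with a list median of -0.02. All 3 encode proteins held between the mitochondrial membranes, as do *DIABLO* (-0.07, FDR = 0.171) and *HTRA2* (-0.06, FDR = 0.522), named after their values were seen, which did not pass. *CYCS*, which encodes the cytochrome c that pores release, fell from 239 ± 8.19 to 216 ± 1.47 CPM, a log2FC of -0.14 (SE 0.03, FDR = 6.12e-05). *AIFM1*, encoding apoptosis-inducing factor, fell from 109 ± 3.08 to 97.0 ± 0.998 CPM (log2FC -0.18, SE 0.03, FDR = 2.46e-05). *ENDOG*, the gene of endonuclease G, fell from 35.1 ± 1.60 to 30.9 ± 0.541 CPM (log2FC -0.18, FDR = 0.00413), a call lost under 7 of 15 alternatives, with an FDR of 0.0304 under DESeq2 and 0.0396 without LNCaP parental replicate 1.

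Of the 6 tested genes of inhibitors of apoptosis, 2 fell and 2 rose (66.7% beside the same 34.2%). *BIRC5*, which encodes survivin, a protein with a second role in cell division, fell from 104 ± 3.63 to 67.7 ± 2.76 CPM (log2FC -0.63, SE 0.04, FDR = 3.96e-17). *BIRC2*, the gene of cIAP1, rose from 47.1 ± 2.30 to 53.7 ± 0.366 CPM (log2FC 0.19, SE 0.04, FDR = 3.23e-04). *NAIP* rose from 17.6 ± 0.881 to 21.8 ± 2.12 CPM (log2FC 0.31, SE 0.08, FDR = 8.29e-04), with an FDR of 0.0125 without LNCaP parental replicate 2, and has near-identical copies in the genome between which reads could have been split.

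Among 8 tested genes of the death receptor pathway, 2 fell and 1 rose (37.5% beside 34.2%), with a median log2FC of -0.11. *TNFRSF10A*, a receptor for the death ligand TRAIL, fell from 21.4 ± 0.505 to 16.9 ± 0.596 CPM (log2FC -0.34, SE 0.07, FDR = 1.30e-04). *TNFRSF1A*, a receptor for TNF, fell from 77.9 ± 1.56 to 69.8 ± 3.06 CPM (log2FC -0.16, SE 0.04, FDR = 5.44e-04), and its FDR was 0.0155 without PACT KO replicate 1. *CFLAR*, whose protein blocks caspase-8, rose from 48.7 ± 1.01 to 56.3 ± 4.23 CPM (log2FC 0.20, SE 0.04, FDR = 2.40e-04).

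Genes of mitochondrial partners and of the turnover of family proteins had 5 lower and 2 higher of 11 tested, that is 63.6% beside 34.2% of all genes tested, at a median of -0.08. The voltage-dependent anion channels of the outer membrane, one of which holds BAK, all fell. *VDAC1* fell from 293 ± 3.30 to 239 ± 4.11 CPM (log2FC -0.29, SE 0.03, FDR = 1.18e-11) and *VDAC2* from 97.3 ± 1.83 to 82.2 ± 3.18 CPM (log2FC -0.24, SE 0.03, FDR = 3.68e-07). *VDAC3* fell from 153 ± 7.11 to 136 ± 2.24 CPM (log2FC -0.17, SE 0.03, FDR = 2.43e-05). *TRIM17* had 0 reads in every library, which allows up to 0.120 to 0.151 CPM.

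Of 9 transcription factors known to act on BH3-only genes, 3 fell and 4 rose, that is 77.8% beside 34.2% of all genes tested in either direction. *E2F1* fell from 57.1 ± 1.04 to 38.6 ± 0.449 CPM (log2FC -0.56, SE 0.04, FDR = 1.95e-14) and *MYC* from 204 ± 2.39 to 165 ± 5.71 CPM (log2FC -0.31, SE 0.03, FDR = 3.93e-11). *FOXO3*, whose protein can induce *BCL2L11* and *BBC3*, rose from 199 ± 2.48 to 239 ± 4.24 CPM (log2FC 0.27, SE 0.03, FDR = 2.67e-10). A further 2 genes are named after their values were seen. *DDIT3*, encoding the stress factor CHOP, rose from 31.1 ± 1.46 to 42.1 ± 0.954 CPM (log2FC 0.43, SE 0.05, FDR = 1.70e-09). *FOXO1* rose from 7.20 ± 0.342 to 9.04 ± 0.659 CPM (log2FC 0.33, SE 0.10, FDR = 0.00561), but with an FDR of 0.0471 under DESeq2 and 0.0162 by the exact test of edgeR, and above 0.01 without LNCaP parental replicate 2 or 3 or PACT KO replicate 1 or 2. In RefSeq, *DDIT3* overlaps *MARS1*, *ENDOG* overlaps *SPOUT1*, *AIFM1* overlaps *RAB33A*, *VDAC1* overlaps *TCF7* and *CFLAR* overlaps *CFLAR-AS1*.

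*PMAIP1* had the smallest p of the 10 genes, and the genes whose level followed it most closely were looked up over the tested genes with a symbol. Over the 6 libraries, the log2 CPM of *QSOX2*, *NOB1*, *METTL13*, *LYRM7* and *INTS1* had Pearson correlations with it of 0.996, 0.994, 0.993, 0.992 and 0.992. These are the highest among those of the 14462 genes tested that have a symbol, over 6 libraries in 2 groups. All 5 genes were lower in PACT KO cells, which follows from correlating this closely with *PMAIP1*. The correlations are a description only.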

How the data were processed

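PolyA RNA from 3 dishes of LNCaP parental and 3 of PACT KO cells was sequenced on an Illumina NovaSeq. The authors deposited counts, whole numbers of reads per NCBI Gene number, not normalized and not pooled. The submitters' processing notes name bcl2fastq 2.20.0.422, STAR 2.5.3a, StringTie 1.3.3, featureCounts 1.5.3 and hg38. Which annotation was counted, and whether by strand, is not given in the sources used here. A row without a gene number (0.0688% to 0.0708% of a library) was left out. Symbols and positions came from RefSeq (GRCh38.p14, 27540 of 29806 numbers matched), exon lengths from GENCODE release 29.

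The filter was filterByExpr, the scaling TMM and the test glmQLFit with glmQLFTest (edgeR 4.0.16, R 4.3.3), 2-sided, with Benjamini-Hochberg adjustment over all genes tested (FDR), on all 6 libraries. Genes passed at an FDR under 0.01, and DEGs also needed a 1.5-fold change. The standard error (SE) is the log2 fold change over the square root of F, and intervals use the degrees of freedom of the fit. Exact permutation of 3 against 3 dishes cannot give a p under 0.10.

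The 10 genes and the lists were chosen with earlier results of these data known. Named were all 10 genes, the tested rest of the family and, per further list, every DEG and the 3 genes with the smallest p. Alternatives were 3 scalings, DESeq2 1.42.0, the exact test, limma-voom (limma 3.58.1), 2 filters, glmTreat, an FDR of 0.05, the replicate number as a block and each library left out. Protein sequences were not used here. Some single genes of the lists are not reported here.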

Additional observations from a re-analysis of the deposited data

How the results depend on the processing

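The count of BCL2 family genes that rose was 1 (*BID*), 0 under DESeq2 and 2 with library totals as the only scaling, where *BCL2L1* passed too. Over all genes, DESeq2 called 3753 of 20929 and library totals alone 5017 of 14462, beside 4940 of 14462 in the fit used above. Leaving out single libraries, 1 to 2 of the 10 genes were lower and 0 to 1 higher, and the lower count was 1 without LNCaP parental replicate 2. These fits called 4094 to 4692 of the 14646 to 14700 genes tested. No gene of the 10 was a DEG under any alternative, glmTreat included, which called only 265 of 14462 genes tested. Counts of the 66 other apoptosis genes stayed within 1.5 times of 18 lower and 10 higher. Of 35 named genes, 27 kept their side of the threshold under all 15 alternatives tried on them, and no gene that passed changed sign. *BBC3*, *BCL2L11*, *MCL1* and *BCL2L2*, which did not pass, took both signs. The cause of the lost calls was not tested. With the replicate block, 2 of the 10 genes were lower and 1 higher, and 18 and 11 of the other apoptosis genes. That fit called 4770 of 14462 genes tested. Same-numbered libraries did not deviate together (correlations -0.0938, 0.00285 and -0.0862, beside -0.0831 to 0.153 for libraries of different numbers). With 3 dishes per group, these values cannot show whether same-numbered dishes were handled together. Depth limits *BCL2*, *PMAIP1*, *BBC3* and *BIK* most, at 97 to 265 reads per library.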
